A study of Saccharomyces cerevisiae with 24 samples.

Results

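The zinc regulon and the zinc transporters were followed in budding yeast kept in high calcium, as 9 genes chosen by name: ZAP1, ZRT1, ZRT2, ZRT3, ZPS1, ADH4, IZH1, ZRC1 and COT1. All 9 were among the 7126 genes of the count table and all 9 were among the 6089 with enough counts to be tested. They were set beside 25 genes of the iron regulon, because the question put to them was whether the metal response of these cells is specific to iron. The data are 24 polyA RNA libraries of haploid MATa cells in the BY4741 background, 3 in each of 8 groups. Strain crz1 cnb1 carried crz1delta::LEU2 and cnb1delta::KanMx, and it was compared with strain crz1, which carried crz1delta::LEU2 alone. Crz1, a transcription factor downstream of calcineurin, was therefore missing from both, and crz1 cnb1 also lacked the regulatory subunit of calcineurin, the calcium-activated phosphatase. Both also carried his3delta1, ura3delta0, leu2delta0, lys2delta0 and a GFP reporter on chromosome VI, HYG-TEFp-GFP(Y66F). A strain with Crz1 was not analysed here. Cells grew in synthetic medium whose nitrogen source was ammonium chloride. Each strain was sampled before treatment (0 h) and again when it had spent 12, 48 or 72 h in medium with CaCl2 at 200 mM, where cultures were diluted at intervals of 12 h. Every later time is compared with the same 0 h libraries of its strain, and with no untreated library at 12, 48 or 72 h, CaCl2 and time in culture cannot be told apart. The labels number the libraries of a group 1 to 3 and do not say whether the cultures were independent beyond a triplicate time course, so the p-values measure the spread between these libraries.

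Zinc is an essential cofactor that is toxic in excess, and yeast balances it mainly through Zap1, a zinc-sensing transcription factor that turns its targets on when zinc is scarce and binds an 11-base palindrome, the zinc response element. Zap1 raises the plasma membrane importers Zrt1 (high affinity) and Zrt2 (low affinity), the vacuolar exporter Zrt3, the vacuolar importer Zrc1, and its own gene, and in severe scarcity it also lowers ZRT2. Cot1, a paralogue of Zrc1, moves zinc and cobalt into the vacuole. Iron scarcity is answered by another factor, Aft1, which turns on siderophore and reductive iron uptake through promoters that hold its core motif.

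The promoters are given first, to show which of the 9 genes hold the zinc element or the iron motif close to their start. Windows of 250 bases before and 50 bases after the start codon were read from RefSeq R64 for 6001 protein-coding genes and searched on both strands. The zinc response element, ACCTTNAAGGT, was present without a difference in 5 of the 6001 windows (0.0833%) and in 1 of the 9 zinc genes, ZRT1. With at most 1 difference it was present in 71 windows (1.18%) and in 4 of the 9, ZAP1, ZRT1, ZRT3 and ZRC1, and in 0 of the 25 iron genes. The Aft1 core motif, TGCACCC, was present in 78 windows (1.3%), in 13 of the 25 iron genes (52%) and in 0 of the 9 zinc genes. No Aft1 motif overlapped an element in the zinc genes, since none of their windows held one. Of 8 other genes of zinc transport and the IZH family, named below, 2 held the Aft1 motif (25%). The zinc element with at most 1 difference was present in 2 of those 8. Of 14 further genes that Zap1 is known to raise, 1 held that element (7.14%) and 0 held the Aft1 motif. A motif found or not found in a window of this length is a description of the sequence alone. The element of each of the 4 genes is printed 5′ to 3′ on the strand of its gene, in capitals, with 10 bases on either side.
ZAP1: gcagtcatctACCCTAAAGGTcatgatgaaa
ZRT1: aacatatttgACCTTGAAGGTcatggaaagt
ZRT3: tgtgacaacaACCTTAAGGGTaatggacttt
ZRC1: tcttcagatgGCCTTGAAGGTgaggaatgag
These stretches lie at chrX:333197-333227 (minus strand), chrVII:20764-20794 (plus strand), chrXI:118628-118658 (plus strand) and chrXIII:756320-756350 (minus strand) of R64. The first base of the element lies at -144 in ZAP1, -204 in ZRT1, -155 in ZRT3 and -174 in ZRC1, counted from the first base of the start codon.

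The whole windows of ZRT1 and COT1 are printed as examples. ZRT1 holds the full element and was not called for CaCl2 against 0 h in the fit without a replicate block. COT1 holds neither motif and rose in each of the 6 comparisons. Of the genes with 1 difference from the element, ZRT3 was called higher in crz1 at each time and ZAP1 in crz1 at 72 h, while ZRC1 was not called. The printed windows cover chrVII:20728-21027 (plus strand) and chrXV:907506-907805 (minus strand) of R64, with the element of ZRT1 in capitals.
ZRT1: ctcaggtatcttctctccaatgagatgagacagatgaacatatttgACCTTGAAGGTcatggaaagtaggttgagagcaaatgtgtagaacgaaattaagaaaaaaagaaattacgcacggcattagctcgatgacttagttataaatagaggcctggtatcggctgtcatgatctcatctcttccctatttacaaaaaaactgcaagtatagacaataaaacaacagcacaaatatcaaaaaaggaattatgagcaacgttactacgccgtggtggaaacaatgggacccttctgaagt
COT1: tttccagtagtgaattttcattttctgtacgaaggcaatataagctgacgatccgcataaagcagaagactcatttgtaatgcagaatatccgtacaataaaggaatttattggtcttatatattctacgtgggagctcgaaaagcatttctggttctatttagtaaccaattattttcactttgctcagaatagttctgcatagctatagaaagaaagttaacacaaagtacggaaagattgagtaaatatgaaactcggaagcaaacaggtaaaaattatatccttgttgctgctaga

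In R64 the coding genes lie at chromosome X 330431 to 333073 (ZAP1, YJL056C, minus strand), VII 20978 to 22108 (ZRT1, YGL255W, plus), XII 402794 to 404062 (ZRT2, YLR130C, minus) and XI 118793 to 120304 (ZRT3, YKL175W, plus). ZPS1 (YOL154W) lies at XV 34658 to 35407 on the plus strand, ADH4 (YGL256W) at VII 15159 to 16307 on the plus strand and IZH1 (YDR492W) at IV 1434924 to 1435874 on the plus strand. ZRC1 (YMR243C) lies at XIII 754838 to 756166 and COT1 (YOR316C) at XV 906236 to 907555, both on the minus strand. None of the 9 overlaps another gene of the RefSeq annotation. ADH4 and ZRT1 are neighbours, with 4670 bases and 0 protein-coding genes between them.

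Total counts lay between 21582317 and 22016465 per library. CRZ1 had 0 to 4 counts in every library, and CNB1 had 3 to 22 counts in crz1 cnb1 and 1581 to 3043 in crz1. The a-specific and alpha-specific genes are given in unscaled CPM, the counts relative to the library total. Normalised CPM, used below, are the counts relative to the scaled library total. Of the a-specific genes of MATa cells, STE2 had 331 to 1332 CPM, MFA1 72.2 to 986 and MFA2 322 to 1885. STE6 had 109 to 298, BAR1 56.7 to 457, AGA2 18.1 to 298 and ASG7 1.93 to 23.5. Of the alpha-specific genes MF(ALPHA)1 stayed at or below 1.47 CPM, MF(ALPHA)2 at or below 1.01 and STE3 at or below 13.7. SAG1 lay between 17.6 and 40.6 CPM, a range that AGA2 and ASG7 overlapped. On the first principal component 3 libraries stood apart from their groups: crz1 48 h replicate 1 (-23.6, against 0.32 and 3.05) and replicate 1 of the untreated crz1 cnb1 and crz1 groups (19.5 and 21.1, against 38.0 to 39.8). The 12 h libraries rose there in order of replicate number, from -15.2 to 6.04 in crz1 cnb1 and from -17.1 to 5.65 in crz1. At 72 h replicate 3 was instead the lowest in both strains (-22.5 and -19.9). In bulk RNA, fewer cells that express a gene and less RNA per cell cannot be told apart.

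Per transcript length the zinc genes covered a wide range. Over the 24 libraries the median was 307 TPM for ZRC1, 297 for IZH1, 252 for ZRT3 and 206 for COT1, which placed them between percentile 89.8 and 93.1 of all genes. ZRT2 (78.1 TPM), ZRT1 (73.1) and ADH4 (51.9) were intermediate, and ZPS1 (14.1) and ZAP1 (10.3), the regulator itself, were lowest. Of the 8 neighbouring pairs in this order only ADH4 and ZPS1 did not overlap in range (24 of 24 libraries higher for ADH4), while ZRC1 exceeded IZH1 in 15 of 24 libraries and ZRT2 exceeded ZRT1 in 16 of 24. Libraries of one group differed most for ZRT1, with a median coefficient of variation of 42.8% over the 8 groups, against 7.03% for ZRT3 and 12.0% for ZAP1. Replicate 3 was the highest ZRT1 library in 8 of 8 groups. It was also the highest in 7 of 8 for IZH1 and ZRC1, in 6 for ZRT2 and ADH4, in 5 for ZRT3 and ZPS1 and in 4 for ZAP1. For COT1 replicate 3 was highest in 2 groups and replicate 1 in 6.

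**Figure D1:**
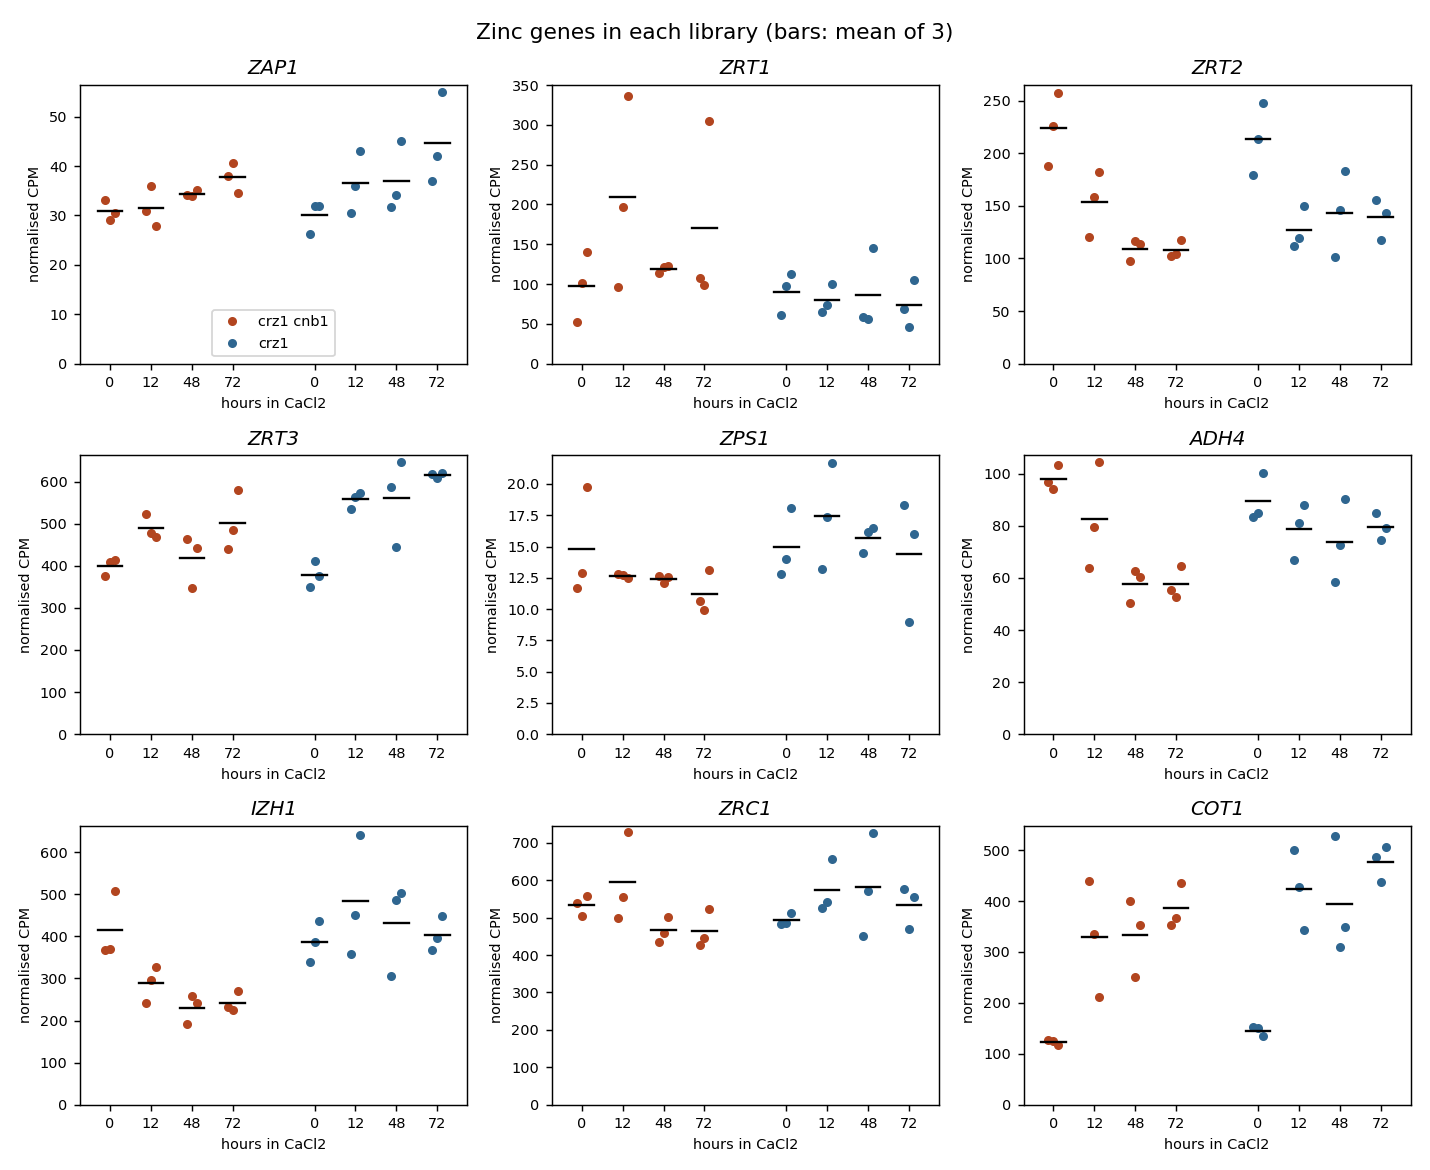
Normalised CPM (counts relative to the scaled library total, linear axis from 0) of the 9 zinc genes in each of the 24 libraries by hours in CaCl2, crz1 cnb1 left of crz1; dots are libraries and bars are means of 3. COT1 is higher in every treated library than in the untreated libraries of its strain, IZH1 is lower in every treated than in every untreated crz1 cnb1 library, and ZRT1 is spread widely within groups.

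In CaCl2 the zinc genes that changed went in both directions. In crz1 cnb1 COT1 rose at 12, 48 and 72 h, ZRT2 fell at each time, and ADH4 and IZH1 fell at 48 and 72 h. In crz1, COT1 and ZRT3 rose and ZRT2 fell at each time, and ZAP1 rose at 72 h. The high-affinity importer gene ZRT1, the cell-surface protein gene ZPS1 and the vacuolar importer gene ZRC1 passed the test in none of these 6 comparisons in the fit without a replicate block. By count, 2 of 9 zinc genes were called in crz1 cnb1 at 12 h (1 higher, 1 lower), beside 20.5% of all genes tested; 4 at 48 h (1 higher, 3 lower), beside 23.9%; and 4 at 72 h (1 higher, 3 lower), beside 35.7%. In crz1 the counts were 3 at 12 h (2 higher, 1 lower), beside 32% of all genes, 3 at 48 h (2 higher, 1 lower), beside 33.5%, and 4 at 72 h (3 higher, 1 lower), beside 42.3%. A gene is called where edgeR's quasi-likelihood test gave a Benjamini-Hochberg adjusted p below 0.05 over the 6089 genes, and every adjusted p here is from that test unless another tool is named. The median log2 change of the 9 genes was 0.04, -0.20 and -0.20 in crz1 cnb1 and 0.22, 0.16 and 0.06 in crz1 at 12, 48 and 72 h, beside medians of all genes between -0.03 and 0.07. Of all genes, 12.9, 14.3 and 20.1% were called higher and 7.67, 9.54 and 15.7% lower in crz1 cnb1, and 17.6, 19.8 and 22.6% were called higher and 14.4, 13.7 and 19.8% lower in crz1.

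COT1, the vacuolar zinc and cobalt importer gene, had the largest change of the 9 in every comparison with 0 h. In crz1 cnb1 its level was 128, 126 and 117 normalised CPM at 0 h, 440, 335 and 212 at 12 h, 400, 250 and 352 at 48 h, and 354, 367 and 436 at 72 h. The crz1 libraries had 152, 151 and 134 normalised CPM at 0 h, 500, 428 and 342 at 12 h, 527, 309 and 349 at 48 h, and 487, 437 and 505 at 72 h. Every treated library was above every untreated library of its strain. In crz1 cnb1 the log2 change was 1.41 ± 0.22 at 12 h, 1.43 ± 0.22 at 48 h and 1.64 ± 0.23 at 72 h (SE, n = 3 libraries a group; adjusted p = 0.000156, 0.000111 and 1.39e-05). The changes in crz1 were 1.54 ± 0.23, 1.44 ± 0.22 and 1.71 ± 0.23 (adjusted p = 2.79e-05, 6.66e-05 and 7.02e-06). The rise therefore came by 12 h, at 2.66-fold in crz1 cnb1 and 2.91-fold in crz1. The change from 0 h differed between the strains by -0.13 ± 0.31 at 12 h, with a 95% interval of -0.77 to 0.52. It differed by -0.01 ± 0.31 at 48 h (-0.65 to 0.64) and by -0.07 ± 0.31 at 72 h (-0.72 to 0.58). Differences within these intervals were not excluded. Each of the 6 rises stayed called under all 34 alternatives run.

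The paralogue ZRC1, whose protein also moves zinc into the vacuole, was not called at any time. Its level was 428 to 730 normalised CPM in crz1 cnb1 and 452 to 726 in crz1 over all times, and its 6 log2 changes lay between -0.20 and 0.24, each within a 95% interval that includes 0. Without crz1 48 h replicate 1, 1 of the libraries that stood apart, the change of ZRC1 in crz1 at 48 h was 0.39 (adjusted p = 0.0355).

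ZRT3, which encodes the exporter that returns vacuolar zinc to the cytosol, was 375, 410 and 413 normalised CPM at 0 h in crz1 cnb1, 524, 478 and 469 at 12 h, 464, 348 and 442 at 48 h, and 440, 485 and 580 at 72 h. Libraries of crz1 had 350, 411 and 376 at 0 h, 535, 564 and 573 at 12 h, 588, 445 and 647 at 48 h, and 619, 610 and 620 at 72 h. All treated crz1 libraries lay above the untreated ones, and in crz1 cnb1 the 48 h libraries overlapped them. In crz1 cnb1 the log2 changes of 0.30 ± 0.13, 0.07 ± 0.13 and 0.33 ± 0.13 were not called (adjusted p = 0.121, 0.755 and 0.0588), and in crz1 ZRT3 rose by 0.56 ± 0.13, 0.56 ± 0.13 and 0.70 ± 0.13 (adjusted p = 0.00324, 0.00313 and 0.00033). The change in crz1 cnb1 differed from that in crz1 by -0.50 ± 0.19 at 48 h and was not called (adjusted p = 0.247), so a difference between the strains in this rise was not shown. Without crz1 cnb1 72 h replicate 1 the 72 h change in crz1 cnb1 was 0.42 and was called (adjusted p = 0.039). On the deposited TPM scale, on which the median of all genes moved by -0.16 at 12 h and -0.33 at 48 h in crz1, the rise of ZRT3 in crz1 was 0.40 at 12 h (limma, adjusted p = 0.0697) and 0.22 at 48 h (0.303). Fitting only the libraries compared gave 0.52 at 48 h (adjusted p = 0.126).

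The importer genes differed. ZRT2, for low-affinity uptake, was 188, 226 and 257 normalised CPM at 0 h in crz1 cnb1, 120, 158 and 182 at 12 h, 97.4, 116 and 114 at 48 h, and 102, 105 and 117 at 72 h. In crz1 ZRT2 was 179, 213 and 248 at 0 h, 112, 119 and 150 at 12 h, 101, 146 and 183 at 48 h, and 156, 117 and 144 at 72 h. Every treated library was below every untreated one of its strain, except crz1 48 h replicate 3, which lay just above the lowest untreated library. ZRT2 fell by 0.54 ± 0.19, 1.03 ± 0.19 and 1.05 ± 0.19 on the log2 scale in crz1 cnb1 (adjusted p = 0.0486, 0.000573 and 0.000285). In crz1 ZRT2 fell by 0.75 ± 0.19, 0.58 ± 0.19 and 0.62 ± 0.19 (adjusted p = 0.00499, 0.0241 and 0.0126). The fall in crz1 cnb1 at 12 h was near the threshold and was called in 17 of 34 alternatives. Of the libraries compared, leaving out crz1 cnb1 0 h replicate 2 or 3 or 12 h replicate 1 or 2 lost it (-0.39, adjusted p = 0.21, without 12 h replicate 1). In crz1 the fall was not called at 48 h without crz1 0 h replicate 2 or 3 or without crz1 48 h replicate 1 (change of -0.38 there), nor with only the libraries compared (-0.63, adjusted p = 0.116). It was not called at 72 h without crz1 0 h replicate 3 or 72 h replicate 2.

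ZRT1, for high-affinity uptake, was 52.2, 102 and 140 normalised CPM at 0 h in crz1 cnb1, 96.7, 197 and 336 at 12 h, 114, 121 and 123 at 48 h, and 108, 99.1 and 305 at 72 h. For crz1 the values were 61.1, 97.6 and 112 at 0 h, 65.0, 74.0 and 100.3 at 12 h, 58.0, 56.2 and 145 at 48 h, and 69.2, 45.7 and 105 at 72 h. Treated libraries overlapped the untreated ones at every time in both strains. In crz1 cnb1, however, each 12 h library was above the untreated library of the same replicate number. This did not hold for every number at 48 or 72 h. The log2 changes were 1.10 ± 0.52, 0.28 ± 0.51 and 0.80 ± 0.52 in crz1 cnb1 (adjusted p = 0.142, 0.728 and 0.236) and -0.18 ± 0.51, -0.07 ± 0.51 and -0.30 ± 0.51 in crz1 (0.821, 0.935 and 0.649). The 95% interval of the 12 h change was 0.01 to 2.19 in crz1 cnb1 and -1.26 to 0.90 in crz1, so a 2-fold fall was within the error in crz1 and a 2-fold rise was not. Several of these values moved when 1 library was left out, and replicate 3 was the highest ZRT1 library in 8 of 8 groups. Without crz1 cnb1 12 h replicate 3 the 12 h change there was 0.56, without crz1 cnb1 72 h replicate 3 the 72 h change was 0.08, and without crz1 48 h replicate 3 the 48 h change in crz1 was -0.70. Leaving out crz1 cnb1 0 h replicate 1 or replicate 3 moved its 48 h change to -0.02 or 0.63, and none of these values was called. The 12 h rise in crz1 cnb1 was called once the edgeR fit took account of replicate number. It was 1.05 whether the strains shared the number effect (adjusted p = 0.0154) or each had its own (0.0188). Same-numbered libraries were only partly alike in this comparison, with a lowest correlation of 0.039, below the 0.1 required for pairing, and a mean of 0.34. The call therefore depends on whether the numbers mark pairs.

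ZAP1, the gene of the regulator, was 38.0, 40.7 and 34.5 normalised CPM at 72 h in crz1 cnb1, against 33.0, 29.0 and 30.4 at 0 h, a change of 0.29 ± 0.16 (adjusted p = 0.147) that was called with only the libraries compared (0.26, adjusted p = 0.0483). In crz1 ZAP1 was 26.2, 32.0 and 31.9 at 0 h, 30.5, 35.9 and 43.0 at 12 h, and 37.0, 42.0 and 55.0 at 72 h. The crz1 72 h libraries lay above the untreated ones, and ZAP1 rose there by 0.57 ± 0.16 (adjusted p = 0.0056). Without crz1 72 h replicate 3 the rise was 0.39 (adjusted p = 0.0634). At 12 h in crz1 the change was 0.28 ± 0.16 (adjusted p = 0.178), which became 0.27 with adjusted p = 0.0483 where the replicate number was a block within each strain.

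The other Zap1 targets fell in crz1 cnb1 or were not called. IZH1, which encodes a membrane protein of the PAQR family tied to zinc balance, was 367, 370 and 507 normalised CPM at 0 h in crz1 cnb1, 241, 296 and 327 at 12 h, 193, 258 and 242 at 48 h, and 233, 224 and 270 at 72 h. Every treated library lay below the untreated ones, and IZH1 fell by 0.85 ± 0.21 at 48 h and 0.78 ± 0.21 at 72 h on the log2 scale (adjusted p = 0.00502 and 0.00594), while the 12 h change of -0.52 ± 0.20 was not called (0.074; -0.61 and 0.0197 without the 3 libraries that stood apart). In crz1 its libraries were 340, 387 and 436 at 0 h, 359, 450 and 640 at 12 h, 307, 487 and 504 at 48 h, and 368, 395 and 448 at 72 h, with overlap at every time and log2 changes of 0.32 ± 0.20, 0.16 ± 0.20 and 0.06 ± 0.20. Without crz1 cnb1 0 h replicate 3 the change at 72 h in crz1 cnb1 was -0.60 (adjusted p = 0.0501). ADH4, for an alcohol dehydrogenase made when zinc is scarce, was 96.7, 94.0 and 104 normalised CPM at 0 h in crz1 cnb1, 64, 79.7 and 104 at 12 h, 50.5, 62.7 and 60.3 at 48 h, and 55.5, 52.8 and 64.4 at 72 h. The 12 h libraries overlapped the untreated ones, the 48 and 72 h libraries lay below them, and ADH4 fell by 0.76 ± 0.16 and 0.77 ± 0.16 on the log2 scale (adjusted p = 0.00198 and 0.00109). In crz1 ADH4 was 58.6 to 90.4 in the treated libraries, against 83.6 to 100.4 at 0 h, with log2 changes between -0.28 and -0.17, none called with TMM scaling and all libraries. Without crz1 48 h replicate 3 the change in crz1 at 48 h was -0.49 (adjusted p = 0.0372). The 12 h change in crz1 cnb1 was -0.47 when its replicate 3 was left out (0.0494). With total counts in place of TMM scaling, which moved the median of all genes in crz1 by -0.21, -0.21 and -0.18, ADH4 was called lower in crz1 at 12, 48 and 72 h (-0.41, -0.50 and -0.36). On log2(TPM + 1), where that median moved by -0.16 at 12 h and -0.33 at 48 h, limma also called ADH4 lower in crz1. The changes were -0.35 at 12 h and -0.62 at 48 h (limma, adjusted p = 0.0357 and 0.000797), and the 72 h change was not called. ZPS1 stayed low, at 9.93 to 19.7 normalised CPM in crz1 cnb1 and 8.94 to 21.6 in crz1, and none of its changes was called (log2 -0.40 to 0.22).

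**Figure D2:**
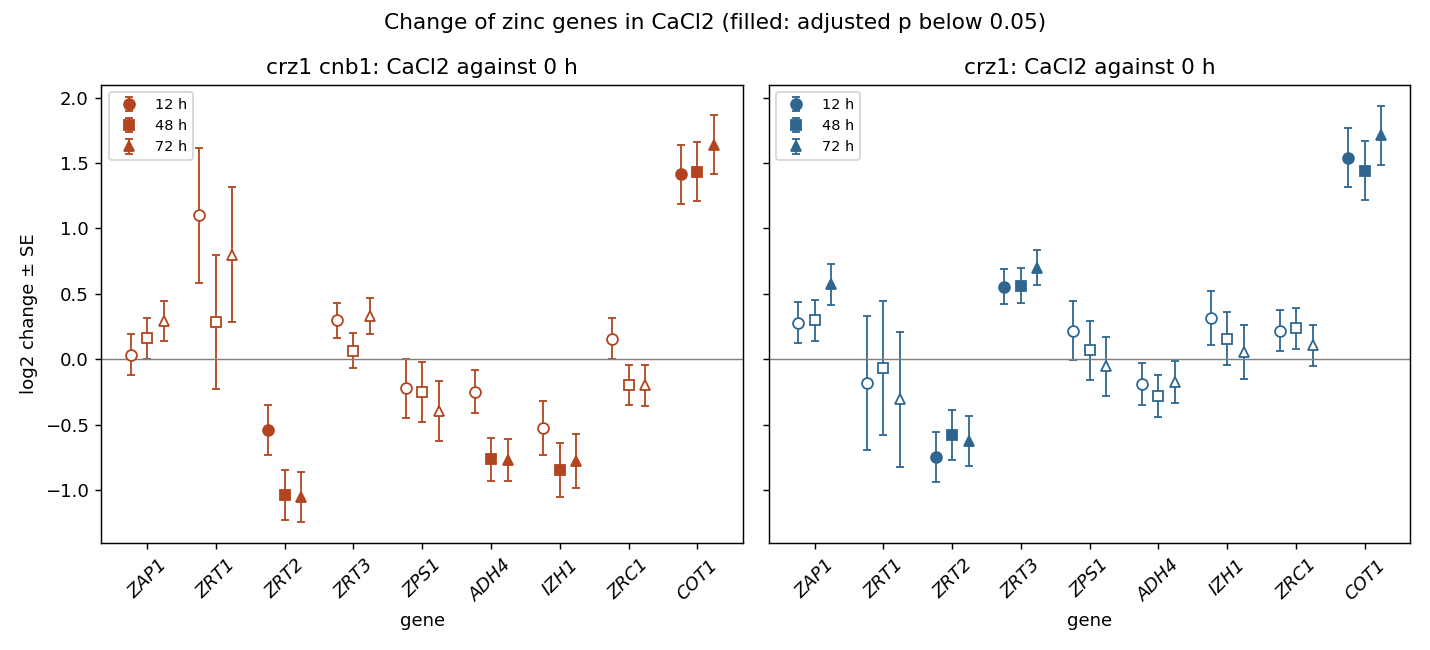
Log2 change of each zinc gene in CaCl2 over 0 h (vertical axis, ± SE) at 12, 48 and 72 h, crz1 cnb1 in the left panel and crz1 in the right; filled symbols passed an adjusted p of 0.05. COT1 stands above 1.4 at each time in both panels, ZRT2 is below 0 in both, and the bars of ZRT1 are the longest.

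Between 12 and 72 h no zinc gene was called in crz1 cnb1 (4.43% of all genes were) or in crz1 (1.89%). At an unadjusted p below 0.05 the counts of zinc genes were 3 in crz1 cnb1 and 0 in crz1, and DESeq2 called 1 in crz1 cnb1, ADH4 (-0.54, adjusted p = 0.0319), and 0 in crz1. Without crz1 48 h replicate 1, a library outside this comparison that enters the shared spread, ADH4 (-0.52, adjusted p = 0.0294) and ZRT2 (-0.51, 0.0496) were called in crz1 cnb1, and ADH4 also without crz1 cnb1 12 h replicate 1 (-0.68, 0.0185).

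The strains were compared next, to ask which levels depend on calcineurin when Crz1 is absent. At 0 h 0 of the 9 genes were called by edgeR or DESeq2, and 0 had an unadjusted p below 0.05; 0.0164% of all genes were called. IZH1 was called at 12, 48 and 72 h, each time lower in crz1 cnb1, so that 1 of the 9 genes was called at each time, beside 3.73, 5.12 and 6.16% of all genes. At 12 h IZH1 was 241, 296 and 327 normalised CPM in crz1 cnb1, against 359, 450 and 640 in crz1, a log2 ratio of -0.74 ± 0.20 (adjusted p = 0.0454). At 48 h it was 193, 258 and 242 in crz1 cnb1, against 307, 487 and 504 in crz1, a ratio of -0.91 ± 0.21 (adjusted p = 0.014). At 72 h it was 233, 224 and 270 in crz1 cnb1, against 368, 395 and 448 in crz1, a ratio of -0.74 ± 0.20 (adjusted p = 0.0351). The libraries of the strains did not overlap at any of the 3 times. The call at 12 h was lost when any 1 of 14 libraries was left out, among them crz1 cnb1 12 h replicates 1, 2 and 3 and crz1 12 h replicates 2 and 3 (-0.49, adjusted p = 0.299, without the last of these). It was lost at 48 h without crz1 cnb1 48 h replicate 1 or crz1 48 h replicate 2 or 3, and at 72 h without crz1 cnb1 72 h replicate 1 or 2 or any crz1 72 h library (adjusted p up to 0.0862 at 48 h and 0.153 at 72 h). Fitting only the libraries compared also lost it at 12 and 48 h (adjusted p = 0.187 and 0.176). With the replicate number as a block, IZH1 stayed called lower in crz1 cnb1 at 12 h, where the numbers paired the libraries of the strains.

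Whether the change from 0 h itself differed between the strains was tested directly. This test called 0 of 9 zinc genes at 12, 48 or 72 h, beside 0.0493, 0.427 and 0.591% of all genes, and 0 in the joint test over the 3 times, beside 0.361%. The unadjusted p was below 0.05 for 1, 3 and 2 of the 9 and for 2 in the joint test, and DESeq2 called IZH1 at 48 h (-1.01, adjusted p = 0.0472). For IZH1 the change was -0.84 ± 0.29, -1.003 ± 0.29 and -0.83 ± 0.29 (adjusted p = 0.314, 0.145 and 0.173). Without the 3 libraries that stood apart, IZH1 was called at 48 h (-1.18, adjusted p = 0.0153), as it was without crz1 48 h replicate 1 alone (-1.20, adjusted p = 0.00758).

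ZRT1 had the largest strain ratio and the largest error. At 12 h it was 96.7, 197 and 336 normalised CPM in crz1 cnb1, against 65.0, 74.0 and 100.3 in crz1, a log2 ratio of 1.40 ± 0.52 (adjusted p = 0.149), with overlap of 1 library. Without crz1 cnb1 12 h replicate 3 the ratio was 0.88 (adjusted p = 0.45). The replicate numbers paired the libraries of the strains at 12 h, and with the number as a block the ratio was 1.28 with adjusted p = 0.0171, so that 2 of the 9 genes were then called there. At 48 h the ratio was 0.47 ± 0.51 and at 72 h 1.22 ± 0.52, where crz1 cnb1 had 108, 99.1 and 305 against 69.2, 45.7 and 105 in crz1. Without crz1 cnb1 72 h replicate 3 the ratio at 72 h was 0.50 (adjusted p = 0.61). ADH4 was lower in every crz1 cnb1 library at 72 h than in crz1 (52.8 to 64.4, against 74.8 to 84.9) and was not called (-0.47 ± 0.16, adjusted p = 0.0951). It was called at the same size with only the libraries compared (-0.48, adjusted p = 0.013), without the 3 libraries that stood apart (-0.47, 0.049) and without crz1 48 h replicate 1 alone (-0.47, 0.0495). At 48 h, without the 3 libraries that stood apart, of which crz1 48 h replicate 1 is in this comparison, 4 genes were called lower in crz1 cnb1 in place of 1: IZH1, ZRT2 (-0.57), ADH4 (-0.48) and ZRC1 (-0.46). Without crz1 48 h replicate 1 alone 5 were called, with ZRT3 (-0.39) as the fifth. ZRT3 was also called without crz1 48 h replicate 2 (-0.58, adjusted p = 0.0254) and by DESeq2 (-0.43, adjusted p = 0.0296). Other alternatives gave smaller ratios at 48 h, none called. With total counts ZRT2, ADH4 and ZRT3 had -0.18, -0.15 and -0.23, and the median of all genes moved by 0.19. On log2(TPM + 1) they had -0.07, -0.05 and -0.13, with a move of 0.28. Without crz1 48 h replicate 3, ZRT2 had -0.18 and ADH4 -0.19. The smallest ratio of ZRC1 under an alternative was -0.02.

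**Figure D3:**
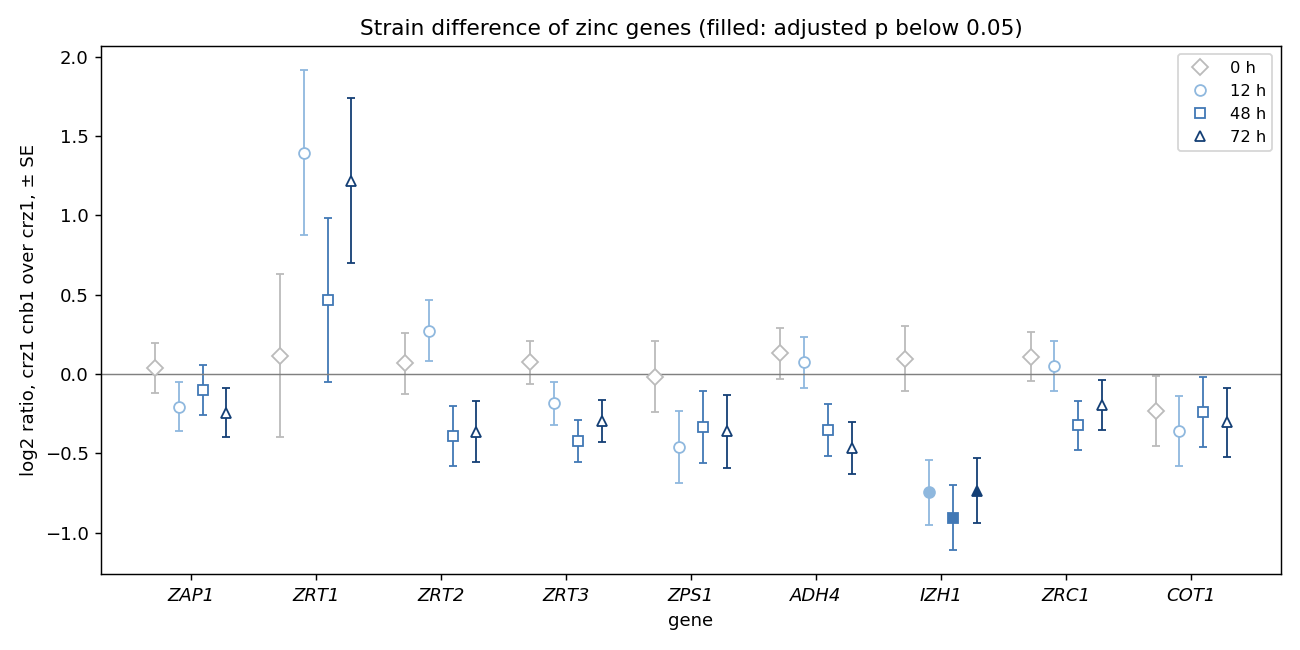
Log2 ratio of crz1 cnb1 over crz1 (vertical axis, ± SE) for each zinc gene at 0, 12, 48 and 72 h; filled symbols passed an adjusted p of 0.05. Only IZH1 is filled, at 12, 48 and 72 h, between -0.91 and -0.74, and ZRT1 lies highest at those times, with the longest bars.

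Most genes of the iron regulon rose. Their list, like the zinc genes and all other lists here, was chosen with earlier results of these data known, so the counts are a description. Of 25 genes 22 were called higher in crz1 cnb1 at 12, 48 and 72 h, with 0, 0 and 1 lower, and 19, 20 and 21 in crz1 with 0 lower. The shares of all genes called higher, between 12.9 and 22.6%, are those given above. The median log2 change of the 25 was 1.73, 2.36 and 2.18 in crz1 cnb1 and 1.15, 1.89 and 1.91 in crz1, against the zinc medians of -0.20 to 0.22 given above. The siderophore transporter gene ARN1 rose by 4.02 ± 0.20 in crz1 cnb1 and 3.53 ± 0.20 in crz1 at 72 h, and FIT3, for a cell wall mannoprotein that holds siderophores, rose by 7.10 ± 0.54 and 6.20 ± 0.52. FRE4, a member of the ferric reductase family, was among those not called at 72 h (-0.48 ± 0.32 in crz1 cnb1 and -0.05 ± 0.31 in crz1). COT1 was the zinc gene whose 8 group means were most like those of the iron genes, with a median Pearson r of 0.94 over the 25, while ZRT2 ran opposite (-0.91) and ZRC1 was near 0 (0.0066). These r are over 8 group means in which the 2 untreated groups stand apart from the treated ones, so they mainly repeat that contrast.

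**Figure D4:**
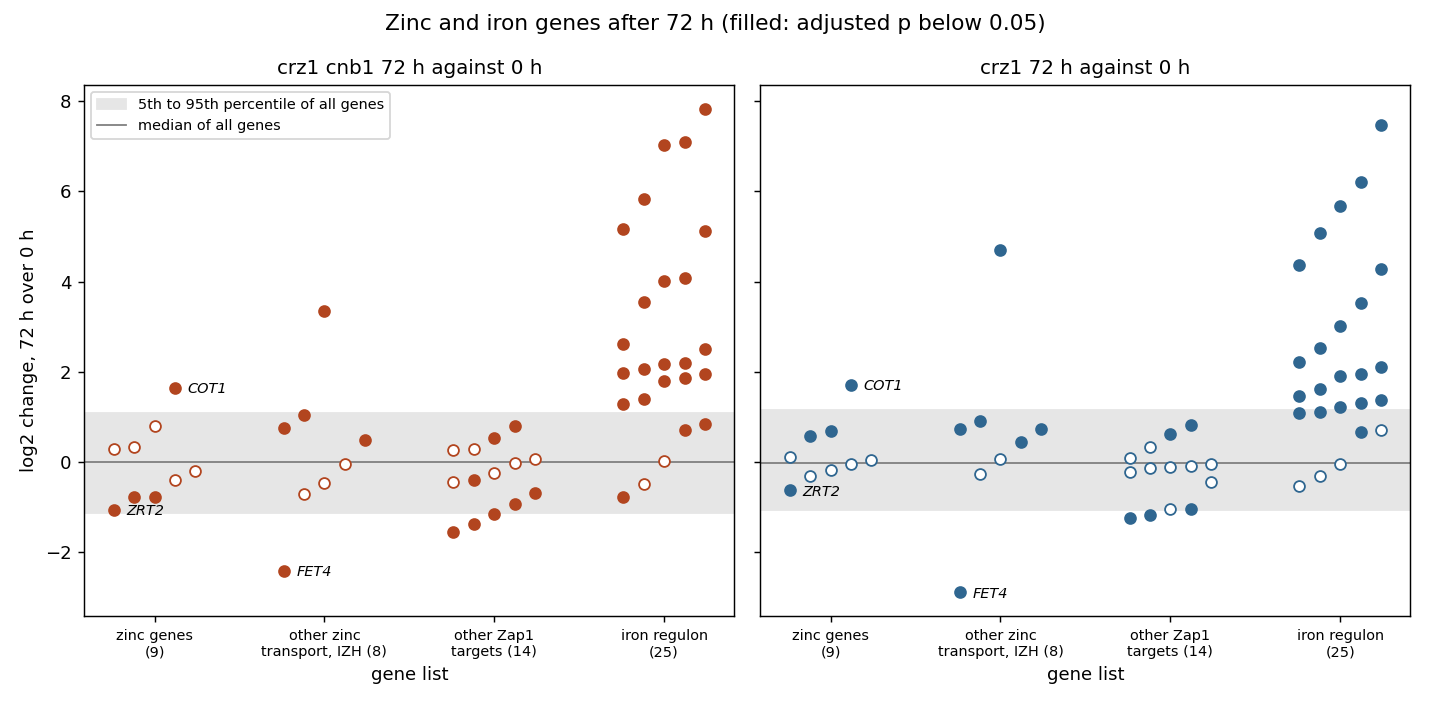
Log2 change at 72 h over 0 h (vertical axis) of every gene of 4 lists, crz1 cnb1 left and crz1 right; filled dots passed an adjusted p of 0.05, and the grey band spans the 5th to 95th percentile of all genes. The zinc genes lie around 0 with COT1 alone above the band in each panel, most iron genes lie above it, and FET4 lies below it.

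Of 8 other genes of zinc transport and of the IZH family (FET4, PHO84, MSC2, ZRG17, YKE4, IZH2, IZH3 and IZH4), 4, 3 and 4 rose and 1 fell at 12, 48 and 72 h in crz1 cnb1, and 5 rose and 1 fell at each time in crz1. Of all genes, 12.9, 14.3 and 20.1% rose and 7.67, 9.54 and 15.7% fell in crz1 cnb1 at these times. In crz1 17.6, 19.8 and 22.6% rose and 14.4, 13.7 and 19.8% fell. The gene of this list that fell was FET4, for a low-affinity transporter of iron that also carries zinc and copper. FET4 had 28.8, 25.2 and 31.3 normalised CPM at 72 h in crz1 cnb1, against 101, 170 and 181 at 0 h. It had 18.4, 26.1 and 19.7 at 72 h in crz1, against 130.2, 171 and 173 at 0 h. Its log2 change at 72 h was -2.41 ± 0.33 in crz1 cnb1 and -2.88 ± 0.34 in crz1 (adjusted p = 2.2e-05 and 3.09e-06). YKE4, for a zinc transporter of the endoplasmic reticulum, rose by 1.05 ± 0.12 in crz1 cnb1 and 0.73 ± 0.11 in crz1 at 72 h. MSC2, for a subunit of another such transporter, was called in crz1 at 48 and 72 h (0.59 ± 0.15 and 0.44 ± 0.15) and at no time in crz1 cnb1 (0.05 ± 0.15 and -0.04 ± 0.15). IZH3, of the same family as IZH1, rose in both strains at each time, by 0.75 ± 0.13 in crz1 cnb1 and 0.92 ± 0.13 in crz1 at 72 h, while IZH1 did not rise in either. IZH3 was lower in crz1 cnb1 at 12 h, at 219, 202 and 163 normalised CPM against 275, 265 and 314 in crz1 (-0.55 ± 0.13, adjusted p = 0.0284). IZH4 rose in crz1 at 12 h by 1.22 ± 0.29 (adjusted p = 0.00287) and was called at no other time. PHO84, for a phosphate transporter that can carry zinc, had the largest rise of the list, 3.35 ± 0.77 in crz1 cnb1 and 4.71 ± 0.82 in crz1 at 72 h, and was named after its values were seen.

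Of 14 further genes that Zap1 is known to raise, 0, 1 and 2 rose and 1, 3 and 6 fell in crz1 cnb1 at 12, 48 and 72 h, and 2 rose at each time with 4, 2 and 3 lower in crz1. Of all genes, 12.9, 14.3 and 20.1% were called higher and 7.67, 9.54 and 15.7% lower in crz1 cnb1, and 17.6, 19.8 and 22.6% higher and 14.4, 13.7 and 19.8% lower in crz1. TSA1, the main cytosolic peroxiredoxin gene, fell by 1.15 ± 0.17 on the log2 scale in crz1 cnb1 at 72 h and had -0.23 ± 0.16 in crz1. At 72 h it was 1108, 1193 and 1139 normalised CPM in crz1 cnb1 against 2583, 1535 and 1926 in crz1 (-0.81 ± 0.17, adjusted p = 0.00534). ICY2, a gene of unknown function, was 86.4, 53.2 and 89.2 in crz1 cnb1 against 18.0, 20.6 and 41.6 in crz1 at 48 h (1.51 ± 0.35, adjusted p = 0.0192), and it was also called higher at 72 h (1.29 ± 0.35, 0.0352). UTH1, for a SUN-family protein of the cell wall, rose by 0.53 ± 0.15 in crz1 cnb1 and 0.83 ± 0.15 in crz1 at 72 h, and ZRG8 by 0.80 ± 0.14 and 0.62 ± 0.14. The alcohol dehydrogenase genes ADH1 and ADH3, which Zap1 is known to lower, were called lower only in crz1 at 48 h (-0.71 ± 0.18 and -0.40 ± 0.14), against -0.29 ± 0.18 and -0.16 ± 0.14 in crz1 cnb1.

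Genes of copper and manganese were counted in the same way. Of 9 copper genes 7 were tested, since CUP1-1 and CUP1-2 had too few counts, and 2, 2 and 1 rose and 2, 1 and 1 fell in crz1 cnb1, against 1, 2 and 1 higher and 1, 1 and 0 lower in crz1. Of all genes, 12.9 to 22.6% were called higher and 7.67 to 19.8% lower in these comparisons, so nothing is read from counts this small in the copper and manganese lists. CTR2, for the vacuolar copper exporter, rose in both strains at each time, by 1.74 ± 0.14 in crz1 cnb1 and 1.69 ± 0.14 in crz1 at 72 h. CTR2 had 148, 148 and 169 normalised CPM at 72 h in crz1 cnb1, against 43.1, 52.2 and 43.9 at 0 h, with no overlap. It had 151, 156 and 180 at 72 h in crz1, against 51.6, 57.8 and 41.5 at 0 h, again with no overlap. CTR1, the high-affinity copper importer gene, had 0.05 ± 0.10 in crz1 cnb1 and -0.20 ± 0.10 in crz1 at 72 h, and was called lower in crz1 at 12 h (-0.27 ± 0.10). CUP2, for the copper-sensing activator, was called higher in crz1 cnb1 at 12 and 48 h and in crz1 at 48 h (0.43 to 0.45). FRE7 was called lower in crz1 cnb1 at each time and in crz1 at 48 h, at 1.32 normalised CPM or less in every library. Of 6 manganese transport genes, 1, 1 and 2 rose and 0, 1 and 0 fell in crz1 cnb1, and 2, 2 and 3 rose and 0, 0 and 1 fell in crz1. SMF2, for an intracellular manganese transporter, rose by 0.45 ± 0.13 in crz1 cnb1 and 0.56 ± 0.13 in crz1 at 72 h, and PMR1, for the Golgi calcium and manganese pump, had 0.26 ± 0.13 and 0.53 ± 0.13, called in crz1.

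The members were also compared with one another and with 4957 named genes over the 8 group means of log2 CPM, as a description. ZPS1 and IZH1 (Pearson r = 0.91), ZRT2 and ADH4 (0.91), and ZRT3 and COT1 (0.86) ran together, and ZRT1 and IZH1 ran opposite (-0.81). The genes most like COT1 were ZWF1 (0.994), AIM46 (0.992) and MTC2 (0.992), and 336 genes exceeded 0.9 with it, beside 7 with ZRC1, for which VMA5 was nearest (0.972). ZRT2 was nearest to BIO5, LEU5 and OMA1 (0.974 to 0.988), ZRT3 to PEX8, PHO91 and KRE6 (0.98 to 0.984), and ZAP1 to GMC1, ALD3 and OCA5 (0.965 to 0.977). ZRT1 was nearest to SPB1, MRD1 and CDC12 (0.931 to 0.96), and IZH1 to RTN1, ANT1 and HIM1 (0.956 to 0.974). Genes close to ZPS1 included IRC7 (0.972) and REE1 (0.969), and genes close to ADH4 included APE4 (0.982) and UBP8 (0.976). With 8 points and this many genes, high values are common.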

How the data were processed

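PolyA RNA of 24 libraries was measured. The deposited count table holds raw read counts per gene and the deposited TPM table the same libraries in TPM; per the submitters' processing notes, featureCounts, DESeq2 and build R64 were used. No version and no strand setting is given in the sources read. Every TPM value tested equalled the count per length within 1% of a scale of its library. The test was that of edgeR 4.0.16 (R 4.3.3), with TMM factors, filterByExpr by group and a robust quasi-likelihood fit of all 24 libraries with 1 coefficient per group. There were 15 contrasts and a joint test, with p adjusted over 6089 genes. Standard errors come from the F statistic, and 95% intervals from the same fit. Levels are normalised CPM, with unscaled CPM for the a-specific and alpha-specific genes, and TPM only where genes are compared.

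The 9 genes and all lists were chosen with earlier results of these data known. Beside all 9, the genes named are the 3 of smallest adjusted p per list for CaCl2 and for the strains, and the 3 most like each of the 9 over group means, of which some are not reported here. Replicate numbers paired the libraries (each correlation of deviations from group means above 0.1) for crz1 at 12 h against 0 h (lowest 0.114) and the strains at 0 h (0.56) and 12 h (0.169), and not otherwise. Alternatives were RLE size factors, total counts, no filter, replicate blocks, only the libraries compared, DESeq2 1.42.0, limma 3.58.1 on log2(TPM + 1) and log2(TPM + 0.1), each library left out, and, chosen after seeing the data, the 3 libraries that stand apart left out. The fit was also tested on simulated data, in which 200 genes changed. Figures used matplotlib 3.10.9.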

Additional observations from a re-analysis of the deposited data

How the results depend on the processing

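Each of the 16 counts of called zinc genes and each log2 change was recomputed under the alternatives. No called change reversed its direction. The number called for crz1 at 48 h against 0 h was 1 with only the libraries compared, in place of 3. For crz1 cnb1 at 12 h against 0 h it was 2, and 4 with total counts, 1 without a filter, 4 with either replicate block and 1 with only the libraries compared. For crz1 cnb1 at 72 h against 12 h it was 0, and 2 with either block, 1 with DESeq2 and 2 without the 3 libraries that stand apart. Between strains it was 1 at each of 12, 48 and 72 h. With the replicate block it was 2, 2 and 3, with only the libraries compared 0, 0 and 2, with DESeq2 2 at 48 h, and without the 3 libraries 4 at 48 h and 2 at 72 h. For the change in strain difference it was 0, and at 48 h 1 with either block, DESeq2 or without the 3 libraries, at 72 h 1 with either block and 2 with only the libraries compared, and in the joint test 1 with either block. Leaving out each library in turn gave 3 to 3, 2 to 4 and 3 to 4 for crz1 at 12, 48 and 72 h against 0 h, and 1 to 3, 4 to 4 and 3 to 5 for crz1 cnb1. It gave 0 to 2 for crz1 cnb1 at 72 h against 12 h, 0 to 1, 0 to 5 and 0 to 2 for the strains at 12, 48 and 72 h, and 0 to 1 for the change at 48 h and the joint test. The cause was not tested. Except for crz1 at 12 h and the strains at 0 and 12 h, the lowest correlation between same-numbered libraries was below 0.1. The mean correlation in those comparisons lay between 0.06 and 0.42. Apart from ZRT1 in crz1 cnb1 at 12 h against 0 h, also given above, the block for those comparisons is given here alone. The block within strain gives no strain ratio, and the joint test was not run with DESeq2 or on the libraries compared. With the block over all libraries and that within strain, ZRT1 was called in crz1 cnb1 at 12 h against 0 h (1.05 in both, adjusted p = 0.0154 and 0.0188). With the block within strain ZAP1 was called in crz1 cnb1 at 72 h (0.29, 0.0325) and crz1 at 48 h (0.29, 0.0366), and with that over all libraries ADH4 was called between strains at 72 h (-0.48, 0.0166). Of the 23 changes of single genes that were called, 725 of their values under an alternative stayed called and 54 did not. Of the 112 that were not called, 65 values became called, 94 moved by more than their standard error without a call and 3616 did neither. Depth limits ZPS1 most, at 196 to 451 counts per library.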
